A study of Mus musculus with 12 samples.

Results

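The genes described here shape the mitochondrial network of the heart and mark damaged mitochondria for removal. They are 10 rows of the deposited expression table, found by name and NCBI Gene identifier, with no threshold on a measured value, out of 18079 genes in all. Opa1, Mfn1 and Mfn2 serve fusion, Dnm1l, Fis1 and Mff serve fission, Pink1, Bnip3 and Fundc1 serve mitophagy, and Tomm20 belongs to the protein import machinery of the outer membrane. RNA-seq was run on left ventricular muscle from 12 male C57BL/6 mice in 4 groups of 3. Mice had aortic banding (AB), which narrows the aorta and loads the left ventricle with pressure, or a Sham operation at 8 weeks of age, and hearts were taken 4 weeks later. The DMSO+Sham and DMSO+AB groups received the solvent, and the Hispidulin+Sham and Hispidulin+AB groups received hispidulin, a plant flavonoid, at 20 mg/kg/day by intraperitoneal injection from the day ahead of the operation to harvest. All groups thus shared the strain, the injections and an operation, and no group was left without injection or without surgery. Whether hispidulin changes mitochondrial dynamics in the overloaded heart was one of the questions of the study.

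Mitochondria of heart muscle join and divide continuously. Mfn1 and Mfn2 are the mitofusins, GTPases that tether and merge outer membranes, and Opa1 is the dynamin-like GTPase that merges inner membranes and holds the cristae in shape. Division is carried out by Drp1, the product of Dnm1l, which is recruited from the cytosol by receptors such as Mff and Fis1 and constricts the organelle. Damaged mitochondria are cleared by mitophagy, in which the kinase Pink1 accumulates on the outer membrane and marks the organelle through ubiquitin, while Bnip3 and Fundc1 are outer membrane receptors that bind the autophagy machinery directly. Tomm20 is a receptor that recognises the targeting sequences of proteins made in the cytosol.

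Expression is given as FPKM, which scales the fragments of a gene by its length and by sequencing depth, so that levels of different genes can be set side by side. The sequencing depth of the libraries is unknown, and no counting error can be given. All 10 genes were detected in all 12 mice and passed the filter on low values, which asked for 3 or more mice with an FPKM of 1 or more and left 11664 genes to be tested. A gene was called when its adjusted p was under 0.05 in limma, fitted to log2(FPKM + 1) of all 12 mice, and the fold changes below are on that scale. Each mouse had a total of 535235 to 567027 FPKM over the table, and Spearman correlations across genes between mice of a group lay between 0.968 and 0.986. Cardiomyocyte markers (Myh6, Actn2, Tnnt2, Tnni3, Ryr2 and Myl2) summed to between 27397 and 35668 FPKM in the mice, and no listed marker was at 0 in every mouse. Atrial muscle markers (Myl7, Myl4 and Sln) summed to 2.53 to 39.99 FPKM in 9 mice and stood at 773.90 in Hispidulin+Sham mouse 3, 171.96 in DMSO+AB mouse 2 and 91.00 in Hispidulin+AB mouse 3, so that these 3 libraries stood apart. Hispidulin+Sham mouse 1 stood apart in smooth muscle markers (Myh11, Tagln, Acta2 and Cnn1), with a sum of 282 FPKM against 42.4 to 129 in the others, and Hispidulin+Sham mouse 3 also in blood markers (Hba-a1, Hbb-bs and Alas2), with 7574 FPKM against 1690.33 to 3819. Values without single mice, these included, stand beside some of the fold changes of the 10 genes, and not beside all that they moved.

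Pink1 was the most abundant of the 10 genes on the FPKM scale in every group and Fundc1 the least. Averaged over the 12 mice, Pink1 stood at 336 FPKM, above 97.7% of the genes tested, Mfn2 at 226 FPKM, above 96.8%, and Bnip3 at 223 FPKM, also above 96.8%. Fundc1 stood at 10.99 FPKM, above 57.1% of the genes tested. In DMSO+Sham hearts the order of the mean levels was Pink1, Bnip3, Mfn2, Fis1, Mfn1, Mff, Opa1, Dnm1l, Tomm20 and Fundc1. In the other 3 groups Mfn2 preceded Bnip3 and the rest of the order was the same. Neighbours in that order did not always differ beyond the spread of the mice. In DMSO+Sham the ranges of Pink1 and Bnip3, of Bnip3 and Mfn2, and of Fis1 and Mfn1 overlapped. In DMSO+AB the ranges of Pink1 and Mfn2, Mfn2 and Bnip3, Mfn1 and Mff, Opa1 and Dnm1l, and Dnm1l and Tomm20 overlapped, whereas in both hispidulin groups Opa1 and Dnm1l were the one overlapping pair. In DMSO+Sham the mean of Mfn2 was 228 FPKM and that of Dnm1l 31.4 FPKM.

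**Figure D1:**
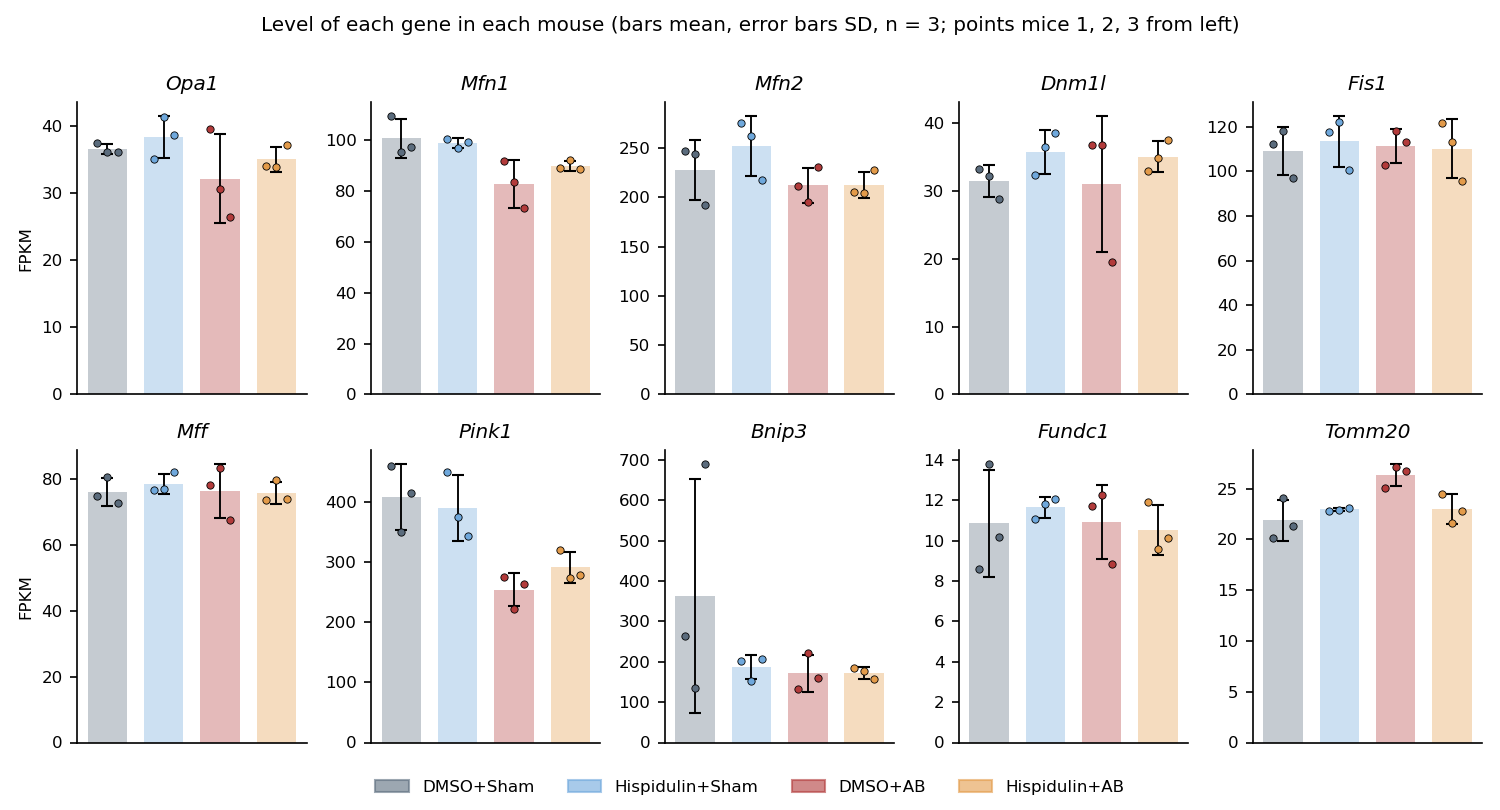
FPKM (vertical axes, each from 0) of the 10 genes in the 4 groups; points are mice, bars means and error bars SD (n = 3 mice). Pink1 lay between 222.61 and 275.34 in the DMSO+AB mice and between 350.59 and 459.39 in the DMSO+Sham mice, and the widest spread was that of Bnip3 in DMSO+Sham, where mouse 3 reached 688.86.

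The comparison of DMSO+AB with DMSO+Sham asks how pressure overload alters these genes without drug. Pink1 was lower after AB and was the 1 gene of the 10 that was called, against 5.21% of all genes tested (2.71% lower). Mfn1 was lower and Tomm20 higher with groups that did not overlap, but neither was called. The other 7 genes had overlapping groups. At an unadjusted p under 0.05 there were 3 of the 10 genes, against 20.4% of all genes, and the median fold change of the 10 genes was -0.08 against -0.03 for all genes. Groups did not overlap for 3 of the 10 genes, 2 lower and 1 higher, against 17.9% of all genes, of which 10.8% were lower and 7.18% higher.

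Among the mitophagy genes, Pink1 had 459.39, 350.59 and 414.11 FPKM in the DMSO+Sham mice and 275.34, 222.61 and 264.26 FPKM in the DMSO+AB mice. Every banded mouse was below every sham mouse, and the means were 408 ± 54.7 (SD, n = 3 mice) and 254 ± 27.8. The fold change was -0.68 on the log2 scale with a standard error of 0.13, a 95% confidence interval of -0.97 to -0.39 and an adjusted p of 0.019 from limma, so that Pink1 fell by 37.5%. For a single gene the exact two-sided permutation test of 3 mice against 3 cannot give a p below 0.1, the value it gave here. In bulk tissue, fewer cells of a type and less RNA per cell cannot be told apart. The cardiomyocyte markers summed to 27780 to 35668 FPKM in DMSO+Sham and 27397 to 31513 in DMSO+AB, with 5 of the 6 lower after AB and 1 of them called, and the fibroblast markers (Col1a1, Col1a2, Col3a1, Dcn, Pdgfra and Postn) summed to 326 to 413 and 377 to 930 FPKM, with 6 of 6 higher and 3 called. The endothelial markers (Pecam1, Cdh5, Kdr, Tie1, Egfl7 and Vwf) summed to 272 to 292 FPKM in DMSO+Sham and 311 to 338 in DMSO+AB, without overlap, with 4 of 6 higher and 0 called. The part of these shifts in the fall of Pink1 was not tested.

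The call of Pink1 held in 12 of 16 other settings, in which its fold change lay between -0.85 and -0.59 and the adjusted p from limma between 0.0046 and 0.125. It was lost when DMSO+Sham mouse 1 was left out (-0.59, adjusted p = 0.0831) and when DMSO+AB mouse 2, the one with raised atrial markers and with the highest fibroblast sum, was left out (-0.59, adjusted p = 0.083). Animal numbers in the column labels fall into series, of which 2 hold mice of both groups. Within the series with 2 banded mice and 1 sham mouse the difference was -0.74, within that with 1 of each it was -0.41, and the remaining sham mouse belonged to neither. With the series as a covariate the fold change was -0.59 (adjusted p = 0.083), and with only the 6 mice compared in the fit it was -0.68 (adjusted p = 0.125).

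Bnip3 had 263.44, 134.08 and 688.86 FPKM in DMSO+Sham and 132.37, 221.73 and 159.01 FPKM in DMSO+AB. The groups overlapped, and DMSO+Sham mouse 3 was more than 2 times above every other mouse of the study. The fold change of -0.79 had an interval of -1.73 to 0.15 (adjusted p = 0.326), and without that mouse it was -0.17. Within the series the difference was -2.001 and 0.24, in opposite directions. Leaving out DMSO+Sham mouse 2 instead gave -1.34 (adjusted p = 0.0313), so that single sham mice decided the size of this difference. The same DMSO+Sham mouse 3 had the highest level of the 12 mice also for Sqstm1, at 563.51 FPKM, and for Map1lc3b, at 307.92 FPKM. Sqstm1 is an adaptor that carries ubiquitinated cargo to autophagosomes, and Map1lc3b encodes the autophagosome protein LC3B. Both were picked with values known, and no count over the mitophagy and autophagy genes was made. Usp15 also peaked in that mouse, at 39.73 FPKM, whereas Bnip3l (27.08 FPKM), Fkbp8 (85.19 FPKM), Atg101 (24.54 FPKM) and Nipsnap2 (488.75 FPKM) did not.

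Fundc1 stood at 8.61, 13.78 and 10.17 FPKM in DMSO+Sham and at 11.69, 12.26 and 8.85 FPKM in DMSO+AB, ranges that overlapped almost wholly. Its fold change was 0.02, from -0.12 to 0.19 over single omissions, with an interval of -0.33 to 0.37. A change of the size seen in Pink1 lies outside that interval.

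Of the fusion genes, Mfn1 had 109.58, 95.36 and 97.58 FPKM in DMSO+Sham and 92.02, 83.45 and 73.20 FPKM in DMSO+AB. All banded mice were below all sham mice, although DMSO+AB mouse 1 came within a few FPKM of DMSO+Sham mouse 2. The fold change was -0.28 with a standard error of 0.10 and an interval of -0.49 to -0.07, and the adjusted p of 0.117 from limma did not pass. The gene was called with library weights (-0.34, adjusted p = 0.0276) and without DMSO+AB mouse 1 (-0.36, adjusted p = 0.0437). Within the series of animal numbers the difference was -0.15 and -0.38.

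Opa1 varied little in DMSO+Sham, with 37.56, 36.19 and 36.11 FPKM, and widely in DMSO+AB, with 39.56, 30.65 and 26.43 FPKM. The group after AB thus held both a mouse above all sham mice and the lowest mouse of the study. Its fold change of -0.20 had an interval of -0.48 to 0.08 (adjusted p = 0.421) and was -0.35 without DMSO+AB mouse 1 and -0.07 without DMSO+AB mouse 3. Mfn2, the more abundant mitofusin, had 247.39, 243.63 and 192.58 FPKM in DMSO+Sham and 211.75, 194.95 and 230.47 FPKM in DMSO+AB. The groups overlapped and the fold change was -0.10 with an interval of -0.36 to 0.17, and over single omissions it ran from -0.21 without DMSO+Sham mouse 3 to -0.032 without DMSO+Sham mouse 1. Mfn1 and Mfn2 were not shown to move apart, and the ratio of Mfn2 to Mfn1 was 2.26 ± 0.291 (SD, n = 3 mice) in DMSO+Sham and 2.60 ± 0.479 in DMSO+AB, where mouse 3 had 3.15.

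The fission genes had fold changes close to 0 under AB. Dnm1l had 33.30, 32.24 and 28.78 FPKM in DMSO+Sham and 36.78, 36.81 and 19.46 FPKM in DMSO+AB. Of the banded mice 2 were above all sham mice and mouse 3 was far below them, so the fold change of -0.07 (interval -0.50 to 0.36) became 0.22 without DMSO+AB mouse 3. That mouse was the lowest of the 12 for Opa1, Mfn1, Dnm1l and Mff alike. Fis1, an outer membrane adaptor, ranged from 96.92 to 117.90 FPKM in DMSO+Sham and from 102.84 to 117.88 in DMSO+AB, with a fold change of 0.03 and an interval of -0.23 to 0.29. Mff, the main receptor of Drp1, ranged from 72.66 to 80.81 FPKM and from 67.55 to 83.51 FPKM, with an interval of -0.21 to 0.21 around a fold change of 0.00.

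Tomm20 had 20.18, 24.13 and 21.30 FPKM in DMSO+Sham and 25.09, 27.14 and 26.74 FPKM in DMSO+AB. All banded mice were above all sham mice, with means of 21.9 ± 2.04 and 26.3 ± 1.09 (SD, n = 3 mice). The fold change of 0.26 had a standard error of 0.09 and an interval of 0.06 to 0.46, and its adjusted p of 0.135 from limma did not pass. With library weights it was called (0.34, adjusted p = 0.0383). Within the series of animal numbers the difference was 0.28 and 0.14.

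**Figure D2:**
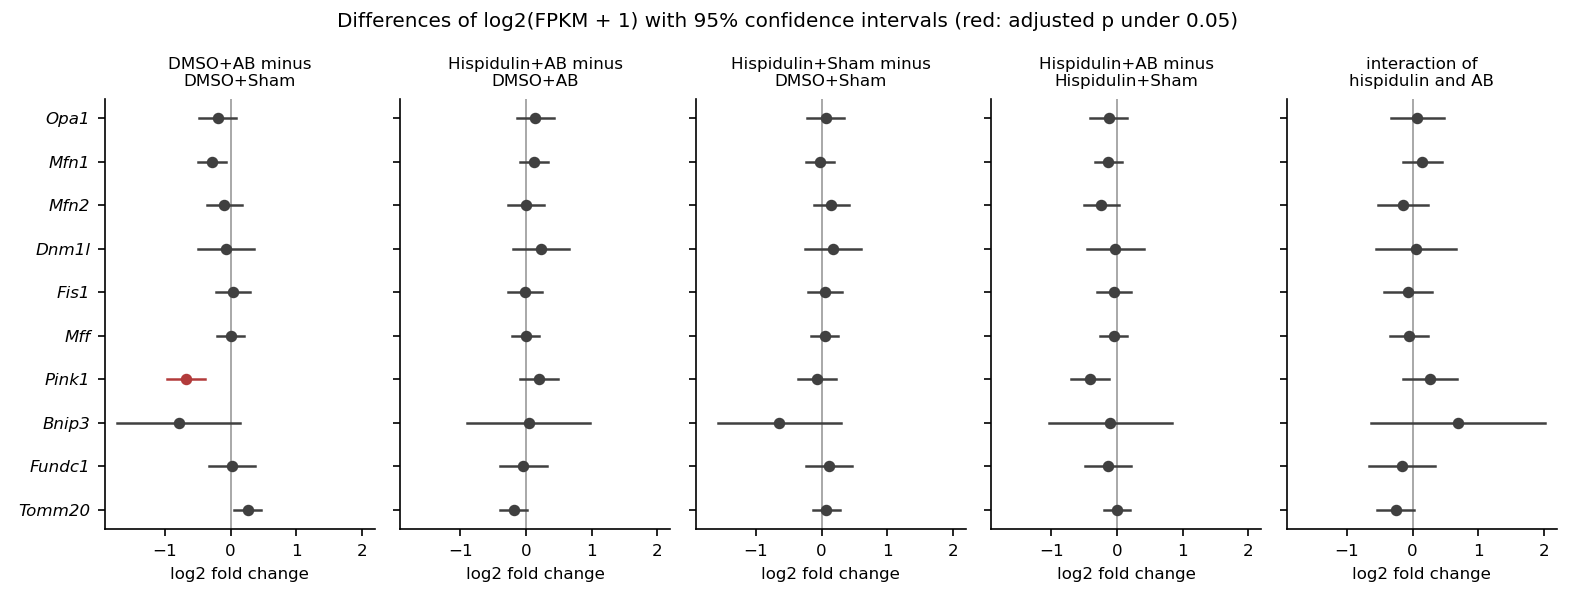
Fold change of the 10 genes (points; horizontal axes, difference of log2(FPKM + 1)) with 95% confidence intervals (lines) in 4 comparisons and the interaction, red where the adjusted p from limma was under 0.05. The 1 red point is Pink1 in DMSO+AB minus DMSO+Sham at -0.68; the interval of Bnip3 is the widest, at -1.73 to 0.15 there.

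**Figure D3:**
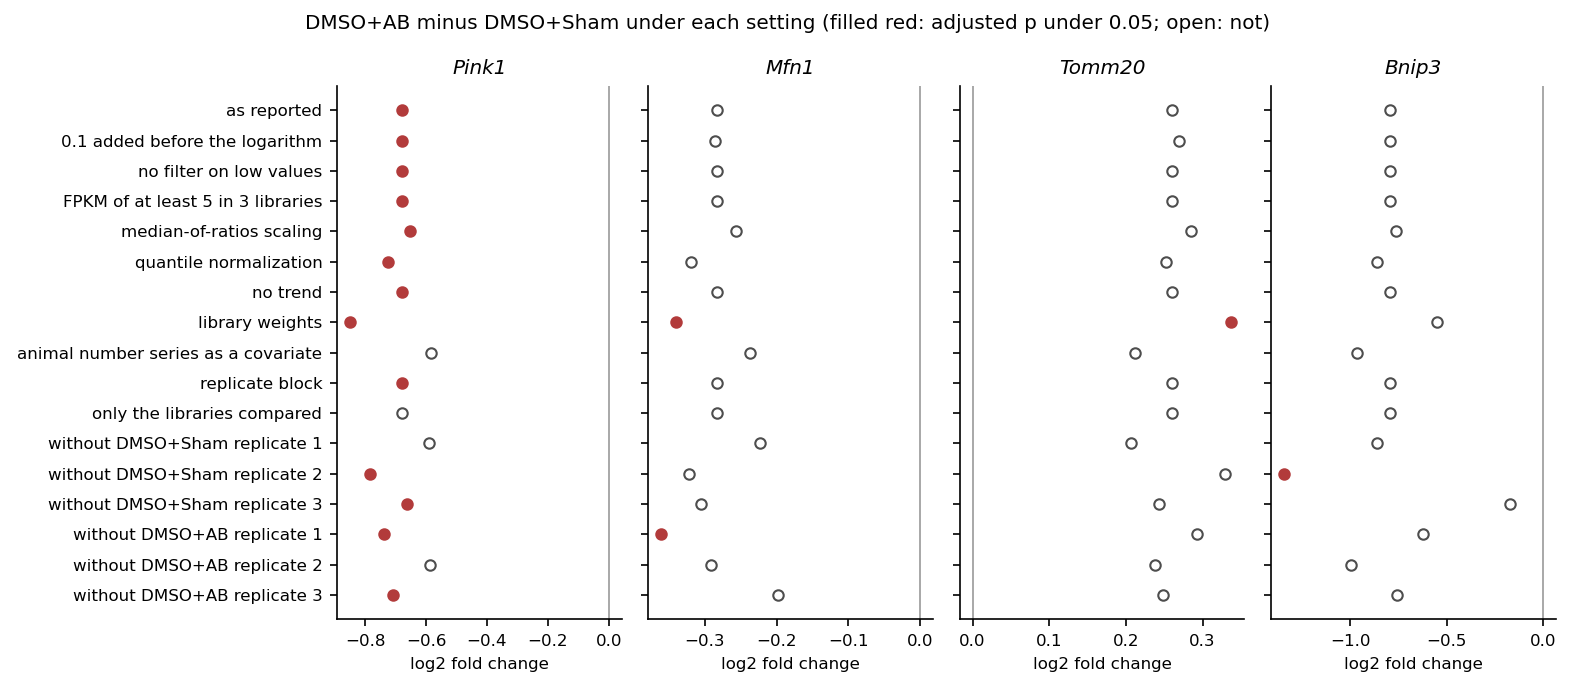
Fold change of DMSO+AB minus DMSO+Sham (horizontal axes, log2 scale, each with its own range) for Pink1, Mfn1, Tomm20 and Bnip3 as reported and under 16 other settings (rows), filled red where the adjusted p was under 0.05. Pink1 stayed between -0.85 and -0.59 and was called in 12 of the 16, while Bnip3 stood at -1.34 without DMSO+Sham mouse 2, where it was called, and at -0.17 without DMSO+Sham mouse 3.

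The sequence before the start site is shown for the called gene Pink1, for Mfn1 and Tomm20, whose groups did not overlap under AB, and for Bnip3, the most variable of the genes. Each is the 250 bases before the RefSeq start site on GRCm38.p6, written 5′ to 3′ on the strand of the gene. The regions are chr4:138326297-138326546 (minus strand) for Pink1, chr3:32529232-32529481 (plus strand) for Mfn1, chr8:126945922-126946171 (minus strand) for Tomm20 and chr7:138909507-138909756 (minus strand) for Bnip3. Capitals mark matches on either strand to the NRF-1 core TGCGCA, the GC box GGGCGG and the E-box CACGTG, which overlaps the hypoxia element core ACGTG wherever both were found in these 4 windows.
Pink1: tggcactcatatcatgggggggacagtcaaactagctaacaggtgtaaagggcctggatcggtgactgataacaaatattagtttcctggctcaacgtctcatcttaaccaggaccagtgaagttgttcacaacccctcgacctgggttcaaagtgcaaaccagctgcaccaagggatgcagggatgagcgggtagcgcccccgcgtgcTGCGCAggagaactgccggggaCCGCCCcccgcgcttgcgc
Mfn1: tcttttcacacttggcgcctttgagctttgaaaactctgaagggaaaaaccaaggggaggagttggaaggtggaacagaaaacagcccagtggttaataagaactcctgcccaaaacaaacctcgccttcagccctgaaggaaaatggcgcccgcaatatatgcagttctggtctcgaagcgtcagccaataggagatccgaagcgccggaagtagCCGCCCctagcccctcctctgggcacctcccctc
Tomm20: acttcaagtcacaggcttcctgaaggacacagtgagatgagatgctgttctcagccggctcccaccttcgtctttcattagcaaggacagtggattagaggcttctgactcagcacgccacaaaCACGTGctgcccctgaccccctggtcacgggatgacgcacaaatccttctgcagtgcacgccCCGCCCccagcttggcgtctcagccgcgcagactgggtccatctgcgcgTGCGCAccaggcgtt
Bnip3: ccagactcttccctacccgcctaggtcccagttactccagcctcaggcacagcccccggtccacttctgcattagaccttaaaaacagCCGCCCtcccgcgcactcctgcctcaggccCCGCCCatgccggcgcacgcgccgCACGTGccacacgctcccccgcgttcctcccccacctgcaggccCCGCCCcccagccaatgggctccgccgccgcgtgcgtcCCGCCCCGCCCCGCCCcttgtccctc

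All 10 genes matched RefSeq promoter entries, 15 windows in all because Mfn2, Fis1, Mff and Dnm1l have several starts. The NRF-1 core, named for a factor that drives many nuclear genes of mitochondria, was found in 4 of the 15 windows, of Fis1, Opa1, Pink1 and Tomm20, against 6.43% of all 32851 windows of that length. This core was chosen after matches of a longer NRF-1 element had been seen. The GC box was found in 12 of the 15 windows, of 9 genes and not of Fundc1, against 32.7% of all windows. The windows of Mff overlapped, as did those of Mfn2, and the GC box of both Mff windows was the same site counted in each. The E-box was found in 2 of the 15 windows, of Bnip3 and Tomm20 (6.02% of all windows), and the hypoxia core in 3, of Bnip3, Tomm20 and Mfn2 (16.6%). The binding element of oestrogen-related receptors, AAGGTCA, and the forkhead element GTAAACA were in none of the 15 windows and in 4.08% and 3.17% of all windows. The 15 windows held 46.0% to 72.4% G and C, against a median of 52.4% over all windows. The shares of the motifs were not compared with windows of like G and C content. Pink1, which was lower under AB, and Tomm20, which was higher, both carried the NRF-1 core. A match is a description of the letters and not a site of binding.

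The comparison of Hispidulin+AB with DMSO+AB asks what the drug alters in the overloaded heart. None of the 10 genes was called, as for all genes tested (0.0%), and no adjusted p from limma was below 0.996. Of the 10 genes 0 had an unadjusted p under 0.05, against 3.1% of all genes. Groups did not overlap for 1 of the 10 genes, Tomm20, which was lower with the drug, against 7.88% of all genes (3.65% lower). The DMSO+AB mice enter this comparison and the preceding one, so that the same mice set both values of a gene.

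For Opa1 the Hispidulin+AB mice had 34.14, 33.89 and 37.21 FPKM, inside the range of the DMSO+AB mice. The fold change was 0.14 with an interval of -0.14 to 0.42, and it was 0.29 without DMSO+AB mouse 1 and 0.0088 without DMSO+AB mouse 3. For Mfn1 they had 89.19, 92.36 and 88.59 FPKM, above DMSO+AB mice 2 and 3 and around mouse 1. The fold change was 0.12 with an interval of -0.09 to 0.33, and it was 0.20 without DMSO+AB mouse 1 and 0.039 without DMSO+AB mouse 3. The mean of 90.0 ± 2.03 FPKM lay between those of DMSO+AB, 82.9 ± 9.42, and DMSO+Sham, 100.8 ± 7.65 (SD, n = 3 mice). For Mfn2 they had 205.46, 203.93 and 227.31 FPKM, with the same mean of 212 FPKM as DMSO+AB and an interval of -0.27 to 0.27 around a fold change of 0.00. A rise of Mfn2 by more than 0.27 on the log2 scale was therefore outside the interval.

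Among the fission genes, Dnm1l had 32.86, 34.88 and 37.43 FPKM in Hispidulin+AB, which overlapped DMSO+AB. Its fold change of 0.23 had an interval of -0.20 to 0.65 and turned to -0.07 without DMSO+AB mouse 3, the low mouse named above, and to 0.37 without DMSO+AB mouse 2. Fis1 had 121.61, 113.26 and 95.82 FPKM, a range that spanned the DMSO+AB mice, with a fold change of -0.02 and an interval of -0.28 to 0.24. Mff had 73.73, 79.78 and 73.87 FPKM, with a fold change of -0.01 and an interval of -0.21 to 0.20.

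Pink1 had 320.62, 274.10 and 278.47 FPKM in Hispidulin+AB, of which 2 lay above the DMSO+AB range and 1 inside it. The mean was 291 ± 25.7 FPKM against 254 ± 27.8, the fold change was 0.20 and the interval of -0.09 to 0.49 held 0. Without DMSO+AB mouse 2 it was 0.11. Pink1 in Hispidulin+AB also remained below every DMSO+Sham mouse. Bnip3 had 183.29, 177.30 and 156.46 FPKM, within the DMSO+AB range, and its interval of -0.90 to 0.98 left changes in either direction possible. Its fold change was -0.13 without DMSO+AB mouse 1 and 0.24 without DMSO+AB mouse 2. Fundc1 had 11.91, 9.57 and 10.11 FPKM, with a fold change of -0.04 and an interval of -0.40 to 0.31.

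Tomm20 had 24.52, 21.63 and 22.84 FPKM in Hispidulin+AB, all below the DMSO+AB mice and 2 of them inside the DMSO+Sham range. The fold change of -0.19 had an interval of -0.39 to 0.01, which held 0, and the exact two-sided permutation test gave 0.1, the smallest p of this design. Leaving out single mice kept it between -0.23 and -0.15, including the mice with raised atrial markers, DMSO+AB 2 and Hispidulin+AB 3. The fibroblast markers summed to 376 to 606 FPKM in Hispidulin+AB and the cardiomyocyte markers to 30499 to 34046.

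The comparison of Hispidulin+Sham with DMSO+Sham asks for an effect of the drug on the unloaded heart. None of the 10 genes was called (0.0% of all genes), 0 of the 10 had an unadjusted p under 0.05 against 2.46% of all genes, and 0 of the 10 had groups that did not overlap against 5.6%. With the replicate number as a block, 0 of the 10 genes were called as well. Bnip3 had 200.84, 152.99 and 206.40 FPKM in Hispidulin+Sham, all within the DMSO+Sham range, and its fold change of -0.64 (interval -1.58 to 0.29) was -0.02 without DMSO+Sham mouse 3. Mfn2 had 275.88, 262.28 and 217.52 FPKM, with a fold change of 0.15 and an interval of -0.12 to 0.41. It was 0.25 without Hispidulin+Sham mouse 3, which had raised atrial and blood markers, 0.077 without Hispidulin+Sham mouse 1, which had raised smooth muscle markers, and 0.03 without DMSO+Sham mouse 3. Blocked by replicate number, Mfn2 had an interval of -0.14 to 0.43. Dnm1l had 32.28, 36.40 and 38.52 FPKM, with a fold change of 0.18 and an interval of -0.25 to 0.61. That fold change was 0.25 without Hispidulin+Sham mouse 1 and 0.12 without DMSO+Sham mouse 3. The other 7 genes had fold changes from -0.07 (Pink1) to 0.12 (Fundc1), and both of these turned without DMSO+Sham mouse 1, to 0.021 and -0.024. Pink1 also turned without Hispidulin+Sham mouse 3, to 0.018.

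Banding was also compared within the drug, as Hispidulin+AB against Hispidulin+Sham. None of the 10 genes was called (0.0% of all genes), and with the replicate number as a block 0 of the 10 were called while 17 of all genes were. Of the 10 genes 9 had a negative fold change, against 6399 of all 11664 genes, with a median of -0.12 against -0.02 over all genes. At an unadjusted p under 0.05 there was 1 of the 10 genes, against 7.26% of all genes, and groups did not overlap for 2 of the 10, both lower, against 20.9% of all genes (11.8% lower). The first of these was Pink1, with 450.00, 374.80 and 342.92 FPKM in Hispidulin+Sham against 320.62, 274.10 and 278.47 FPKM in Hispidulin+AB. All banded mice were below all sham mice, the fold change was -0.41 with a standard error of 0.13 and an interval of -0.70 to -0.12, and the adjusted p of 0.519 from limma did not pass. The fold change was -0.50 without Hispidulin+Sham mouse 3 and -0.38 without Hispidulin+AB mouse 3, both with raised atrial markers. Without Hispidulin+Sham mouse 1, with raised smooth muscle markers, it was -0.30, and -0.50 and -0.30 were the ends over all single omissions. For Pink1 the difference within the series of animal numbers was -0.21 and -0.56. Endothelial markers summed to 273.45 to 323.70 FPKM in Hispidulin+Sham and 324.39 to 344.61 in Hispidulin+AB. The cardiomyocyte and fibroblast sums of these groups overlapped, and the part of such shifts in Pink1 was not tested. The second was Mfn1, with 100.53, 96.83 and 99.42 FPKM against 89.19, 92.36 and 88.59 FPKM, where the fold change of -0.13 had an interval of -0.34 to 0.08. Mfn2 had a fold change of -0.24 with an interval of -0.51 to 0.03 and overlapping groups. It was -0.34 without Hispidulin+Sham mouse 3 and -0.17 without Hispidulin+Sham mouse 1.

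Whether the change under AB differed with the drug was tested by the interaction of both factors. None of the 10 genes was called (0.0% of all genes), and 0 of the 10 had an unadjusted p under 0.05 against 2.48% of all genes. The interaction was 0.27 for Pink1 (interval -0.15 to 0.68, and 0.17 without DMSO+AB mouse 2), 0.15 for Mfn1 (-0.15 to 0.45, and 0.063 without DMSO+AB mouse 3) and -0.26 for Tomm20 (-0.54 to 0.03). For Bnip3 it was 0.69 with an interval of -0.64 to 2.01, and it was 0.063 without DMSO+Sham mouse 3 and 1.24 without DMSO+Sham mouse 2. Each of these intervals held 0, and the fall of Pink1 without drug (-0.68) was thus not shown to differ from that with drug (-0.41).

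Across the 12 mice, which share the differences between groups and 1 table of values, Pink1 and Mfn1 were the pair of the 10 genes with the highest correlation of log2(FPKM + 1) (Pearson r = 0.80, Spearman rho = 0.89, n = 12 mice). Tomm20 ran opposite to both, with r of -0.81 to Mfn1 and -0.73 to Pink1. Opa1 went with Mfn1 (r = 0.78, rho = 0.51) and with Dnm1l (r = 0.74, rho = 0.45), and Dnm1l with Mff (r = 0.77, rho = 0.59), pairs in which DMSO+AB mouse 3 was the lowest of all. Bnip3 reached no positive r above 0.42 with any of the others.

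The genes whose levels ran most like those of each of the 10 were taken from all genes tested, by Pearson r over the 12 mice. For Pink1 they were Aldh2 (r = 0.98), the mitochondrial aldehyde dehydrogenase, Ano10 (0.97) and the anion exchanger Slc4a3 (0.96). For Mfn1 they were Etfdh (0.97), which passes electrons from fatty acid oxidation to the respiratory chain, the desmosomal cadherin Dsg2 (0.96) and Sdha (0.95), a subunit of succinate dehydrogenase. For Tomm20 they were Stk40 (0.92) and the tubulins Tubb3 (0.91) and Tuba1b (0.90), although Tubb3 had a mean of 0.885 FPKM. For Bnip3 they were Prpf6 (0.98), the lysosomal protease Ctsl (0.97) and Mgst1 (0.96), likeness to a gene with 1 extreme mouse. For Mfn2 they were Pik3c2b, Cluh, which binds mRNAs of mitochondrial proteins, and Tmem94 (0.92 to 0.90), and for Opa1 they were Cep295, Ubxn2a and Dnajc13 (0.96 to 0.94). For Dnm1l they were Vps13a, Cdc27 and Hnrnpdl (0.97 to 0.93), for Mff Nek1, Pdcl and Arhgef6 (0.94 to 0.91), for Fundc1 Vti1b, Nucks1 and Srsf3 (0.92 to 0.89), and for Fis1 Calm3, the ATP synthase gene Atp5g3 and Pcbd2 (0.87 to 0.84).

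Levels were also set against those of partners and paralogs within each mouse. Bnip3 exceeded its paralog Bnip3l by a ratio of 6.46 ± 0.729 (SD, n = 3 mice) in DMSO+AB and 6.45 ± 0.064 in Hispidulin+AB, and in DMSO+Sham the ratio was 10.46, 5.47 and 25.44 in the 3 mice. The order was the other way round for Fundc1, whose paralog Fundc2 was higher by a ratio of 5.18 ± 0.959 in DMSO+Sham and 4.74 ± 0.455 in DMSO+AB. Tomm20 stood to Tomm40, the channel of the import complex, at 0.430 ± 0.0607 in DMSO+Sham and 0.463 ± 0.0278 in DMSO+AB, values within the spread of the mice.

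A wider list of 93 genes of the same pathways, in 7 groups, was examined in the same fit, and 87 of them passed the filter on low values. Pld6, Mtfr2, Gdap1, Nipsnap1, Calcoco2 and Sytl4 stayed below it, with no FPKM above 0.87. Under AB without drug 1 of the 87 was called, against 5.21% of all genes. It was Nipsnap2, which encodes a mitochondrial matrix protein that is displayed on damaged mitochondria. Nipsnap2 had 511.42, 585.63 and 488.75 FPKM in DMSO+Sham and 431.57, 369.61 and 368.86 FPKM in DMSO+AB, groups that did not overlap, and its fold change was -0.44 with a standard error of 0.10 (adjusted p = 0.0299). That call held in 9 of 16 other settings and was lost without DMSO+Sham mouse 1 or 2 and without DMSO+AB mouse 2 or 3 (adjusted p from 0.0521 to 0.107), with median-of-ratios scaling (adjusted p = 0.0622), with the series of animal numbers as a covariate (adjusted p = 0.0892) and with only the 6 mice compared in the fit (adjusted p = 0.203). With hispidulin after AB it had 439.46, 407.33 and 396.33 FPKM, with a fold change of 0.09.

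Under AB without drug 5157 of all 11664 genes had a positive and 6507 a negative fold change, with a median of -0.03. By group, 3 of the 15 tested genes of other mitophagy receptors and regulators were positive and 12 negative, with a median of -0.14, and 1 was called. Fkbp8, another mitophagy receptor, had the highest fold change of that group at 0.05. Of 17 core autophagy genes 6 were positive and 11 negative (median -0.11), from Map1lc3b at -0.40 to Atg101 at 0.29, and 0 were called. Map1lc3b was called without DMSO+Sham mouse 2 (-0.63, adjusted p = 0.023) and stood at -0.15 without DMSO+Sham mouse 3, and Atg101 ran from 0.12 without DMSO+AB mouse 3 to 0.52 without DMSO+AB mouse 1. Of 13 genes of fusion and Opa1 processing 5 were positive and 8 negative (median -0.11), from the protease Yme1l1 at -0.34 to the rhomboid protease Parl at 0.16, and 0 were called. Yme1l1 stood at -0.043 without DMSO+AB mouse 3. The 12 other fission genes split into 7 and 5 (median 0.02), from Mtfr1 at -0.27 to Mief2, which recruits Drp1, at 0.24 (0.15 without DMSO+Sham mouse 3). The 11 genes of cristae organisation split into 5 and 6 (median -0.03), from the MICOS subunit Chchd3 at -0.21 to Dnajc11 at 0.34. These 4 last groups had 4, 0, 1 and 3 genes at an unadjusted p under 0.05 and the whole wider list had 13 of 87, against 20.4% of all genes, and none of their genes was called.

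The genes of protein import and of mitochondrial transport had the highest medians of the 7 groups under AB. An unadjusted p under 0.05 was found for 2 of the 12 import and 2 of the 7 transport genes, against 20.4% of all genes. Of 12 other import genes 10 were positive, with a median of 0.15, like Tomm20 among the 10 genes. The range ran from Tomm7 at -0.10 to Tomm5, a small subunit of the import channel, at 0.55 (adjusted p = 0.0593), and 0 were called. Tomm5 ran from 0.35 without DMSO+Sham mouse 3 to 0.72 without DMSO+Sham mouse 2. Tomm5 had 118.74, 145.71 and 86.46 FPKM in DMSO+Sham and 151.99, 175.60 and 177.55 FPKM in DMSO+AB, without overlap. Of 7 transport genes 4 were positive (median 0.11), from Fez1 at -0.16 (-0.034 without DMSO+Sham mouse 1) to Trak2, an adaptor that couples mitochondria to kinesin, at 0.60 (adjusted p = 0.0552). Trak2 had 42.94, 51.69 and 30.87 FPKM in DMSO+Sham and 56.20, 71.36 and 61.04 FPKM in DMSO+AB, again without overlap, and it was called in 5 of 16 other settings and Tomm5 in 3.

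With hispidulin after AB 0 of the 87 genes were called and 0 had an unadjusted p under 0.05, against 3.1% of all genes. Over all 11664 genes 5671 had a negative and 5993 a positive fold change, with a median of 0.005. Of the 12 import genes 10 were negative (median -0.08), from Timm50, of the inner membrane channel, at -0.25 to Tomm7 at 0.17. Of the 7 transport genes 7 were negative (median -0.09), from Mapk8ip1 at -0.36 to Rhot1 at -0.01, which became positive with quantile normalization (0.0097). The DMSO+AB mice enter these values and those of AB without drug, so that the same mice set both. Of the 15 other mitophagy genes 11 were positive (median 0.03), from Sqstm1 at -0.15 to Usp15 at 0.19. Fusion and Opa1 processing genes ran from Stoml2 at -0.13 to Oma1 at 0.22, other fission genes from Pgam5 at -0.18 to Inf2 at 0.28, cristae genes from Dnajc11 at -0.14 to Apoo at 0.16, and core autophagy genes from Atg101 at -0.32 to Rb1cc1 at 0.15. Of the 15 fold changes of the wider list named for this comparison 11 moved by over 1.5 times when 1 mouse was left out, and Rb1cc1, Usp15 and Rhot1 turned. Apoo was 0.00015, Dnajc11 -0.067 and Atg101 -0.16 without DMSO+AB mouse 3. Under AB without drug 8 of the 14 named fold changes of the wider list moved as much. None of these genes passed the adjusted threshold from limma, where the smallest adjusted p of every group was 0.996. For the drug in Sham hearts, for AB under the drug and for the interaction 0 of the 87 genes were called, and 0, 1 and 1 of them had an unadjusted p under 0.05, against 2.46%, 7.26% and 2.48% of all genes.

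**Figure D4:**
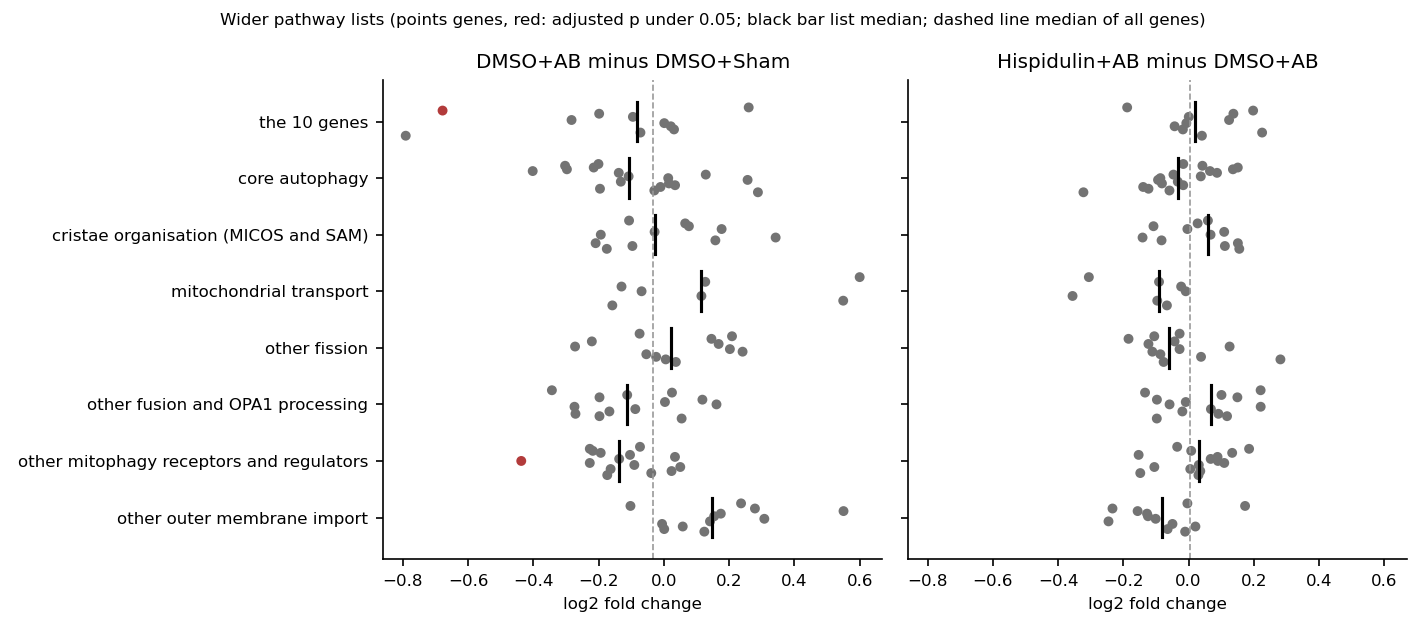
Fold change (horizontal axes, difference of log2(FPKM + 1)) of the 10 genes and of 87 genes in 7 related groups (rows) for DMSO+AB minus DMSO+Sham (left) and Hispidulin+AB minus DMSO+AB (right); points are genes, black bars group medians and the dashed line the median of all genes tested. The 2 red points with an adjusted p under 0.05 are Pink1 at -0.68 and Nipsnap2 at -0.44, both on the left.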

How the data were processed

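Polyadenylated RNA of left ventricular muscle was sequenced on a BGISEQ-500 with single-end reads of 50 bases. The authors deposited FPKM per gene, rounded to 0.01, in 1 table of 18079 genes and 12 libraries. The submitters' processing notes name HISAT2 2.0.4, Bowtie2 2.2.5, RSEM 1.2.12 and DESeq2 1.4.5 without their roles, and the genome build is not given in the sources used here. Groups came from the sample labels, and each mouse gave 1 library. The labels give the age at surgery as 8 weeks and the paper gives a range that starts there.

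The 10 genes and the wider lists were chosen with earlier results of these data known, and the values of 1 gene of the wider lists are not reported here. Symbols were found for 17947 genes (99.3%) in the RefSeq gene table. FPKM are not counts, and the steps between low values did not return whole reads (of 7292 ratios 22.0% came within 0.1 of an integer, where even spacing gives 20%), and the depth is unknown. With 1 added, log2 values were fitted in limma 3.58.1 (R 4.3.3) with 1 mean per group and eBayes with a mean-variance trend (8 error degrees of freedom), two-sided, with Benjamini-Hochberg adjustment over the 11664 genes that reached an FPKM of 1 in 3 or more libraries. Exact permutation tests, correlations and motif searches used Python 3.11.15 and scipy 1.17.1. The NRF-1 core replaced a longer NRF-1 element after matches of the latter, partly in other windows, had been seen. Named genes were all 10 members, genes of the wider lists that were called or had the largest rise or fall of their list in the comparisons of AB with Sham in DMSO and of the drug after AB, and the 3 genes of highest Pearson r for each member. Bnip3l, Fundc2 and Tomm40, as paralogs or partners, were named outside this rule with values known, as were Sqstm1, Map1lc3b and the genes set beside them for DMSO+Sham mouse 3.

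The labels number the mice of each group, though the animals differ. Deviations of mice with the same number correlated by 0.13 to 0.33 for the drug in Sham hearts and by 0.15 to 0.23 for AB under the drug, above 0.1 in every pair, so counts with the number as a block are given beside those comparisons. The correlations were -0.20 to -0.02 for AB in DMSO and -0.18 to 0.30 for the drug after AB. Other settings were each mouse left out in turn, a fit of the compared libraries alone, the animal number series as a term, library weights, no trend, quantile or median-of-ratios normalization, a filter at an FPKM of 5 or none, and 0.1 in place of the 1 added.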

Additional observations from a re-analysis of the deposited data

How the results depend on the processing

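Of the 10 genes 1 was called in DMSO+AB against DMSO+Sham, and the count was 3 with library weights, 0 with the series of animal numbers as a term, 0 with only the libraries compared and 0 to 2 with a mouse left out. For the wider list the count of 1 became 2 with an FPKM of at least 5, 5 with library weights, 0 with the series, 0 with only the libraries compared and 0 to 5 with a mouse left out. Over all genes the count of 608 became 383 without a filter, 1423 with weights, 142 with the series, 11 with only the libraries compared and 91 to 1050 with a mouse left out. In Hispidulin+AB against Hispidulin+Sham the count of 0 became 17 with the replicate block, 209 with weights, 51 with only the libraries compared, 2 without a filter, 2 with median-of-ratios scaling, 3 with quantile normalization and 0 to 3 with a mouse left out. In Hispidulin+AB against DMSO+AB it became 2 without a filter and 0 to 20 with a mouse left out, and in the interaction 0 to 3. In DMSO+AB against DMSO+Sham the block gave 640 called genes, of which 524 were shared with the 608 without it, and left Pink1 and Nipsnap2 called. It changed no call of the 10 genes or the wider list in any comparison.

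The signs of some fold changes turned. For DMSO+AB against DMSO+Sham they turned with quantile normalization for Fis1 (-0.020), Mff (-0.048) and Fkbp8 (-0.0064), with weights for Dnm1l (0.014), and with the series for Mfn2 (0.0079), Mff (-0.022) and Fundc1 (-0.13). With a mouse left out, Fis1 ran from -0.051 to 0.089, Mff from -0.065 to 0.086, Fundc1 from -0.12 to 0.19, Dnm1l from -0.22 to 0.22, Fkbp8 from -0.046 to 0.17 and Tomm7 from -0.23 to 0.0018. For Hispidulin+AB against DMSO+AB they turned with median-of-ratios scaling for Mfn2 (-0.0013), with quantile normalization for Fis1 (0.012), Mff (0.028) and Rhot1 (0.0097), and with weights for Bnip3 (-0.049) and Rb1cc1 (-0.068). With a mouse left out, Mff ran from -0.092 to 0.059, Bnip3 from -0.13 to 0.24, Fundc1 from -0.18 to 0.039, Mfn2 from -0.059 to 0.061, Fis1 from -0.091 to 0.079, Dnm1l from -0.070 to 0.37, Rb1cc1 from -0.19 to 0.35, Usp15 from -0.059 to 0.31 and Rhot1 from -0.13 to 0.060. For Hispidulin+Sham against DMSO+Sham they turned with the series for Pink1 (0.018) and Fundc1 (-0.014), and with a mouse left out Pink1 ran from -0.18 to 0.021 and Fundc1 from -0.024 to 0.29. The causes were not tested. With 3 mice a group and an unknown depth, the width of the intervals holds no counting error. It rests on the spread between mice, which limma drew toward its trend over all genes tested.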
